A study of Danio rerio with 9 samples.

Results

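Cytosolic ribosomes are built from ribosomal RNA and a set of proteins that join a large (60S) or a small (40S) subunit, and the genes for these proteins are described here in zebrafish embryos. They were chosen by symbol, with earlier results of these data known. The choice took every row of the deposited table named rpl or rps followed by a number, or rplp followed by 0 to 2, except rps27l. This gave 77 of 21109 genes or transcripts, 45 for the large and 32 for the small subunit. The libraries were made from poly(A)-selected RNA of tissue labelled as embryonic trunk, in 3 groups of 3. The first group received a control morpholino (control MO), the second a morpholino against sf3b1 (sf3b1 MO), and the third the sf3b1 morpholino with As2S2, an arsenic sulfide (sf3b1 MO + As2S2, below the As2S2 libraries). A morpholino is an antisense oligonucleotide that blocks translation or splicing of its target, and the product of sf3b1 helps the U2 particle of the spliceosome to bind the branch point of introns. The study's stated question was how As2S2 acts on red blood cell maturation in embryos short of sf3b1. The sources used here do not give strain, embryo age, doses or the number of pooled embryos. Since the labels do not tell whether replicates are different clutches, the spread behind each p-value is that of these libraries and may be technical.

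Ribosomal protein transcripts are among the most abundant of a growing cell, and their mRNAs begin with a pyrimidine-rich (TOP) stretch through which the TOR pathway sets their translation as a group. Most of these proteins are needed in equal number. In humans, loss of 1 copy of several of these genes causes Diamond-Blackfan anaemia, and loss of RPS14 is part of the 5q- syndrome, a myelodysplastic disease. SF3B1 is the splicing factor most often mutated in myelodysplastic disease with ring sideroblasts. When ribosome assembly fails, free Rpl5 and Rpl11 bind Mdm2, which stabilises p53.

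Depth was 21942696 to 28702980 counts per library in the 6 control MO and sf3b1 MO libraries and is unknown for the As2S2 libraries, for which FPKM (fragments per kilobase of transcript, scaled to library size) are given. The 77 genes held 144 to 93152 counts each per library, so counting error was small for nearly all of them. The targeted gene did not give a clear check of the labels: sf3b1 stood at 541 ± 5.92 CPM (counts scaled to the library total) in control MO and 877 ± 20.3 in those labelled sf3b1 MO, but at 171 ± 4.68 and 108 ± 1.75 FPKM (SD, n = 3). The As2S2 libraries, which also received this morpholino, stood at 169 ± 2.27 FPKM of sf3b1, near control MO (SD, n = 3). Between control MO and those labelled sf3b1 MO, smad7, an inhibitor of TGF-beta signalling, also differed in direction by scale. It had 39.1 ± 0.844 and 53.01 ± 3.82 CPM against 13.8 ± 1.25 and 10.2 ± 0.331 FPKM. In the cytosolic ribosomal protein genes both scales gave similar numbers of calls, with 65 higher and 1 lower by counts, and 66 higher and 1 lower by FPKM. Of all genes tested, 25.2% were higher and 25.9% lower by counts, and 23.2% and 26.4% by FPKM. Single libraries could still differ between the scales. In 9 of the 77 genes, log2 FPKM per count had an SD over 0.05 across the 6 libraries, after an offset for each library. The largest SD was that of rpl27 (0.25), followed by rps19 (0.11). For the As2S2 libraries this cannot be checked. The sources used here do not say whether the As2S2 libraries were normalized together with the others. This bears on every level set across them.

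The share of each library held by cytosolic ribosomal protein transcripts was higher at each step, in every library. In control MO the 77 genes made up 11.5%, 11.3% and 11.1% of the summed FPKM. In the libraries labelled sf3b1 MO they made up 13.9%, 14.3% and 13.6%, and in the As2S2 libraries 21.0% to 22.1%, with a mean of 21.7% ± 0.619 (SD, n = 3). No library of a group reached the range of another group. By counts, the share was 5.03% ± 0.0777 in control MO and 6.16% ± 0.193 in those labelled sf3b1 MO (SD, n = 3). Without transcripts of the mitochondrial genome the order was the same, with mean FPKM shares of 12.8%, 16.3% and 24.3% in the same 3 groups. Of the 100 most abundant genes, 33 were cytosolic ribosomal protein genes in control MO, 43 in those labelled sf3b1 MO and 50 in the As2S2 libraries.

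The large and small subunits moved in step. The summed FPKM of the large-subunit genes was 1.52 ± 0.0357 times that of the small-subunit genes in control MO, 1.51 ± 0.0274 times in those labelled sf3b1 MO and 1.53 ± 0.00862 times in the As2S2 libraries (SD, n = 3). These ratios differed by less than the spread within control MO. In contrast, the 75 genes for mitochondrial ribosomal proteins, which build the separate ribosome of that organelle, made up 0.280% ± 0.00193 of FPKM in control MO, 0.274% ± 0.00095 in those labelled sf3b1 MO and 0.201% ± 0.00271 in the As2S2 libraries (SD, n = 3).

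**Figure D1:**
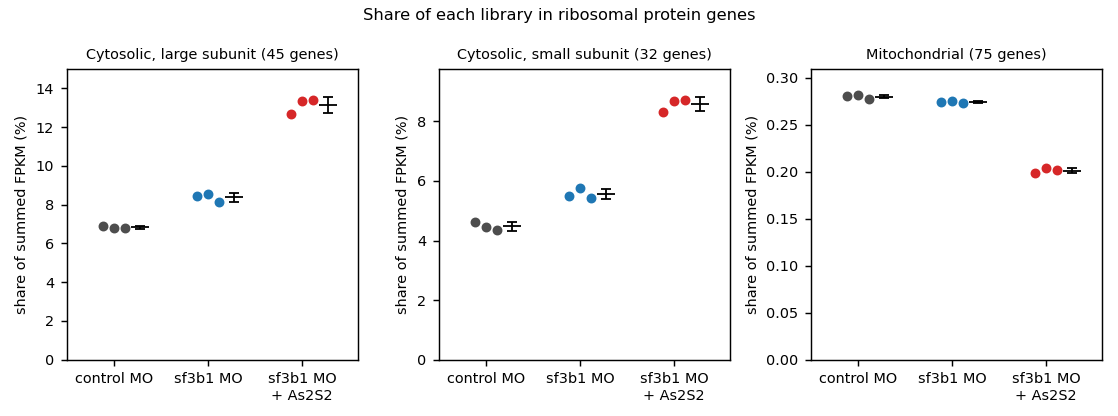
Share of summed FPKM (%, vertical axis) held by genes for the large and the small cytosolic subunit and for mitochondrial ribosomal proteins, by group. Each point is 1 library, and the bar to the right is the mean with its SD (n = 3). The cytosolic shares are highest in the As2S2 libraries, where the mitochondrial share is lowest.

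Compared with control MO, most cytosolic ribosomal protein genes were modestly higher in the libraries labelled sf3b1 MO. By counts (edgeR's quasi-likelihood test, Benjamini-Hochberg adjustment over 20723 genes, threshold 0.05), 65 of 77 were higher and 1, rpl10, was lower. Of all genes tested, 25.2% were called higher and 25.9% lower, 51.1% in all. The median log2 fold change of the 77 genes was 0.40, a 1.32-fold difference of CPM, beside -0.02 for all genes. In the large subunit, 38 of 45 rose and 1 fell, with a median of 0.44. In the small subunit, 27 of 32 rose and none fell, with a median of 0.39. No member rose 2-fold: the largest rise called was that of rpl5b at 0.84. Among the 11 genes not called were rpl10a, rpl27, rpl32, rpl36a, rpl39, rplp2, rps9, rps12, rps15 and rps27a, with log2 fold changes of 0.01 (rps15) to 0.82 (rpl36a). DESeq2, run as an alternative, called 73 of the 77 genes.

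With As2S2, transcripts of the same family were higher again than in the libraries labelled sf3b1 MO. On the log2(FPKM + 1) scale, limma (Benjamini-Hochberg adjustment over 18013 genes) called 73 of 77 higher and 1 lower. Over all genes, 17.3% were called higher and 44.5% lower, 61.8% in all. The median log2 fold change was 0.72, while that of all genes was -0.20, so that the family stood 0.92 above the median gene. With every library centred on its median gene, 76 rose and 1 fell, and 30.2% of all genes were called higher. In the large subunit 42 of 45 rose, and in the small subunit 31 of 32. rpl32, rpl36a and rpl39 missed the threshold as deposited, with adjusted p-values of 0.063, 0.079 and 0.09.

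Set against control MO, the As2S2 libraries had 75 of 77 genes called higher and 2 lower (limma, 18013 genes), where 19.5% of all genes were called higher and 48.5% lower, 68.0% in all. The median log2 fold change was 1.03, about 2.05-fold, and 1.28 above the median gene. Of the 77 genes, 43 were at least 2-fold higher. The upper quartile of the log2 fold changes of all genes was 0.13. This comparison and the preceding one share the As2S2 libraries, and the comparison before it shares the libraries labelled sf3b1 MO, so the 3 counts are not independent. For 69 of the 77 genes, the FPKM of every control MO library lay below every library labelled sf3b1 MO, and these below every As2S2 library. Such a stepwise order was seen in 5.14% of the 18013 genes. The exceptions included rpl10, rpl10a, rpl27, rpl32, rpl36a, rpl39 and rps15.

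**Figure D2:**
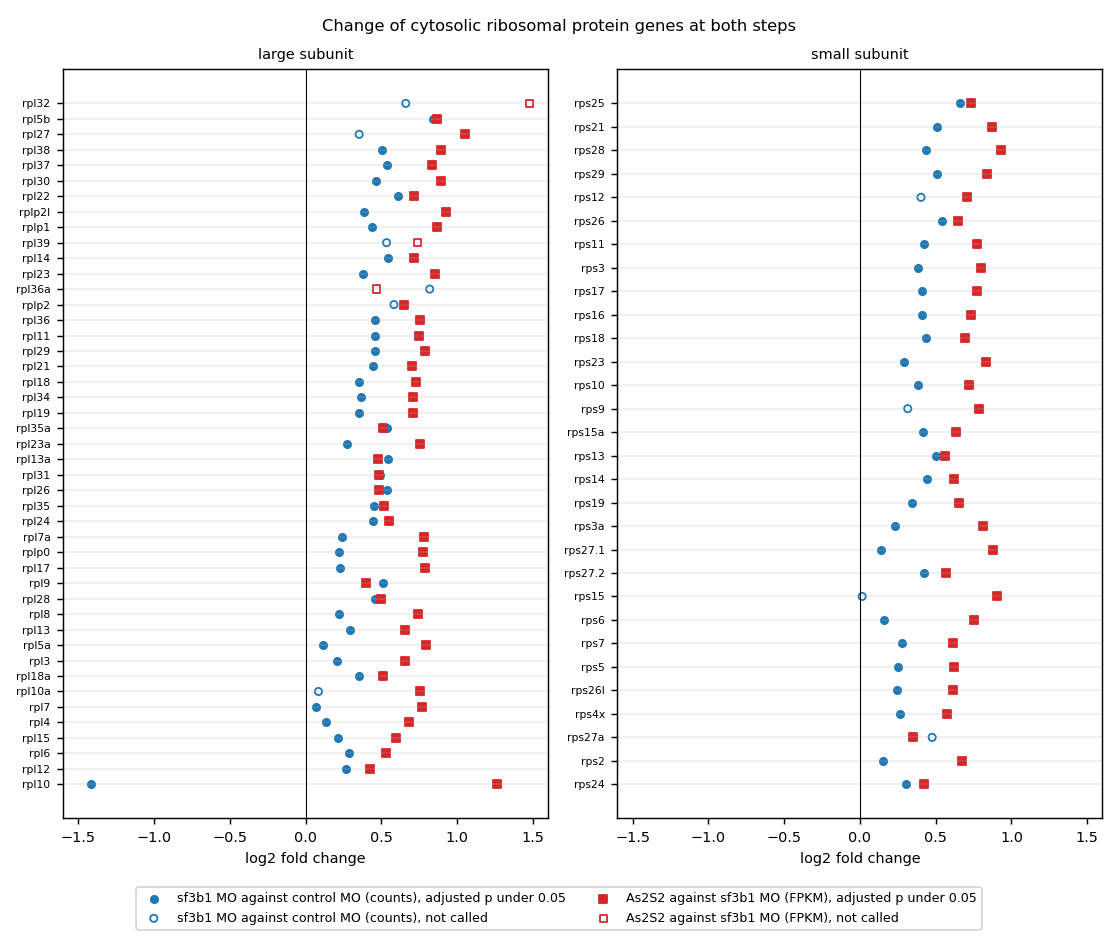
Log2 fold change (horizontal axis) of 75 cytosolic ribosomal protein genes, large subunit left and small subunit right, for the libraries labelled sf3b1 MO against control MO (circles, counts) and for As2S2 against sf3b1 MO (squares, log2(FPKM + 1)). Filled symbols passed an adjusted p of 0.05. Nearly all symbols lie right of 0, and rpl10 lies at -1.42 for the circles.

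Marker transcripts of several tissues also differed between the groups. Summed FPKM of 15 trunk muscle markers was 35480 to 36130 in control MO, 15620 to 16030 in those labelled sf3b1 MO and 8986 to 9083 in the As2S2 libraries. Of these markers, 14 fell at each step, beside 25.9% of all genes at the first and 44.5% at the second. Summed FPKM of 11 eye markers, which trunk tissue should lack, was 4056 to 4188, 3062 to 3195 and 494.7 to 501.4 in the same order. Of the eye markers, 10 fell at the first step by counts and 11 at the second. Neural markers (8 genes) summed to 1385 to 1406, 1602 to 1629 and 1142 to 1157 FPKM. At the first step 5 of them rose and 1 fell by counts, and 5 rose and 3 fell by FPKM. At the second 1 rose and 7 fell. Of all genes, 25.2% were called higher and 25.9% lower at the first step by counts, and 23.2% and 26.4% by FPKM. At the second step these shares were 17.3% and 44.5%. Blood markers (7 of 8 found) summed to 1519 to 1584, 738.8 to 824.5 and 1425 to 1462 FPKM. These sums do not stand for every blood marker. With As2S2 against sf3b1 MO, 4 of the 7 rose and 2 fell, beside 17.3% and 44.5% of all genes. Against control MO, 0 of the 7 blood markers were called higher and 5 lower, beside 19.5% and 48.5% of all genes. At the first step 1 of the 7 was called higher and 4 lower by counts, beside 25.2% and 25.9% of all genes. By FPKM 0 were higher and 6 lower, beside 23.2% and 26.4% of all genes. The median log2 fold change of the blood markers at this step was -0.86 on the FPKM scale but -0.11 by counts. The size of the difference thus depends on the scale. Heat shock genes (7) summed to 143.1 to 151.0, 460.2 to 487.6 and 11710 to 12010 FPKM. No marker had a mean of 0 in any group. Their part in the rise of the ribosomal protein transcripts was not tested. In bulk tissue a change in the number of cells of a type and a change in RNA per cell cannot be told apart.

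Levels differed widely between members although most of the proteins are needed in equal number. In control MO the median member stood at 631.3 FPKM, with quartiles of 341.4 and 1063 FPKM. The median member stood at 803.4 FPKM in the libraries labelled sf3b1 MO and at 1269 FPKM in the As2S2 libraries. Averaged over all 9 libraries, 75 of the 77 genes reached 100 FPKM and 35 reached 1000 FPKM. The median of the 18013 genes that reached 1 FPKM in 3 libraries was 5.458 FPKM. By mean FPKM the most abundant were rplp0, rps2, rpl6, rps4x and rpl7a, in this order. Among the least abundant by this measure were rps26l, rpl32, rpl38 and rpl35a. The low rank of 2 of these depends on the scale. By counts, not divided by transcript length, rps26l (224 CPM) and rpl35a (203 CPM) stood above rps28 (85.4 CPM) in control MO. The order was largely kept: across the 77 genes, group mean FPKM correlated at a Spearman coefficient of 0.98 between control MO and sf3b1 MO, and at 0.974 between control MO and As2S2. These are correlations across genes that share libraries and are given as a description.

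At the head of the list stood rplp0, the base of the stalk. The stalk is the flexible arm of the large subunit that recruits and activates the GTPases of translation. rplp0 measured 2715, 2719 and 2771 FPKM in control MO. It measured 3273, 3286 and 2799 FPKM in those labelled sf3b1 MO and 5226, 5435 and 5333 FPKM in the As2S2 libraries. The third library labelled sf3b1 MO lay close to control MO, and the As2S2 libraries lay far above all others. By counts rplp0 rose by only 0.22 ± 0.07 (log2, SE; edgeR adjusted p = 0.046). That call was lost without any of the control MO libraries or without the first or second library labelled sf3b1 MO (edgeR adjusted p = 0.1 to 0.12), and with upper quartile factors (edgeR adjusted p = 0.12) or a filter of 1 CPM (edgeR adjusted p = 0.052). As2S2 against sf3b1 MO gave 0.78 ± 0.06 (limma adjusted p = 2.7e-06).

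The acidic stalk proteins that dimerise on this base followed. rplp1 rose by 0.44 ± 0.08 (edgeR adjusted p = 0.0096) and then by 0.87 ± 0.07 (limma adjusted p = 7.5e-06). rplp2l rose by 0.38 ± 0.03 (edgeR adjusted p = 4.6e-07) and then by 0.92 ± 0.04 (limma adjusted p = 6.2e-08). rplp2 had 0.58 ± 0.18 by counts and was not called (edgeR adjusted p = 0.056), with 586, 669 and 447 FPKM in the libraries labelled sf3b1 MO. Without the last of these it was called (edgeR adjusted p = 0.0082). It rose by 0.65 ± 0.14 with As2S2 (limma adjusted p = 0.0027). Thus 3 of the 4 stalk genes rose at the first step and 4 of 4 at the second, beside 25.2% and 17.3% of all genes.

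The 5S particle, made of Rpl5, Rpl11 and 5S ribosomal RNA, is both a building block of the large subunit and the arm that reports failed assembly to p53. rpl11 measured 871, 826 and 845 FPKM in control MO, 1140, 1103 and 1180 FPKM in those labelled sf3b1 MO and 1893, 1873 and 1975 FPKM in the As2S2 libraries. The groups did not overlap. The first step was 0.46 ± 0.03 (log2, SE; edgeR adjusted p = 1.1e-07) and the second 0.75 ± 0.03 (limma adjusted p = 1.6e-07).

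Rpl5 is encoded by a pair of genes in zebrafish, and the pair did not move alike. rpl5a, the more abundant, measured 793, 802 and 779 FPKM in control MO, 841, 870 and 808 FPKM in those labelled sf3b1 MO, and 1464, 1453 and 1460 FPKM in the As2S2 libraries. rpl5b measured 398, 399 and 390 FPKM in control MO, 703, 700 and 684 FPKM in those labelled sf3b1 MO, and 1267, 1271 and 1269 FPKM in the As2S2 libraries. Both rose stepwise with no overlap, and rpl5b from a lower start and by more. By counts rpl5b rose by 0.84 ± 0.03 (edgeR adjusted p = 2.3e-11) and rpl5a by 0.11 ± 0.03 (edgeR adjusted p = 0.0058), a call lost with upper quartile factors (edgeR adjusted p = 0.17). With As2S2 both rose by a like amount, 0.87 ± 0.02 and 0.80 ± 0.03 (limma adjusted p = 4.4e-09 and 4e-08). The share of rpl5b in the FPKM of the pair was 33.3% ± 0.103 in control MO, 45.3% ± 0.658 in those labelled sf3b1 MO and 46.5% ± 0.127 in the As2S2 libraries (SD, n = 3). The difference between the genes was not tested beyond these shares. The sources used here do not say how reads that match both copies of a pair were counted, so the split within each pair is uncertain.

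Further pairs were present. Rps27 is a zinc-finger protein of the small subunit. The share of rps27.2 in the FPKM of rps27.1 and rps27.2 was 50.0% ± 0.498 in control MO, 54.8% ± 0.791 in those labelled sf3b1 MO and 49.5% ± 0.442 in the As2S2 libraries (SD, n = 3). It was high in all 3 libraries labelled sf3b1 MO and returned to the range around 50% with As2S2. By counts rps27.2 rose by 0.42 ± 0.04 and rps27.1 by 0.14 ± 0.03 (edgeR adjusted p = 3.9e-06 and 0.0048). The call of rps27.1 was lost with upper quartile factors (edgeR adjusted p = 0.087) and on FPKM (limma adjusted p = 0.076).

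Rps26 binds the mRNA exit channel of the small subunit. The share of rps26l in the FPKM of rps26 and rps26l was 31.7% ± 1.33, 27.3% ± 0.636 and 26.9% ± 1.25 (SD, n = 3) in the same order, with control MO above the other libraries. By counts rps26l was the larger of the pair, so which copy leads depends on the scale. It had 224 ± 6.04 CPM beside 146 ± 12.6 for rps26 in control MO (SD, n = 3). In those labelled sf3b1 MO it had 265 ± 14.1 beside 213 ± 9.82 CPM (SD, n = 3). rplp2l held 69.9% ± 1.46, 67.1% ± 3.85 and 71.2% ± 2.11 of its pair with rplp2, and these ranges overlapped.

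**Figure D3:**
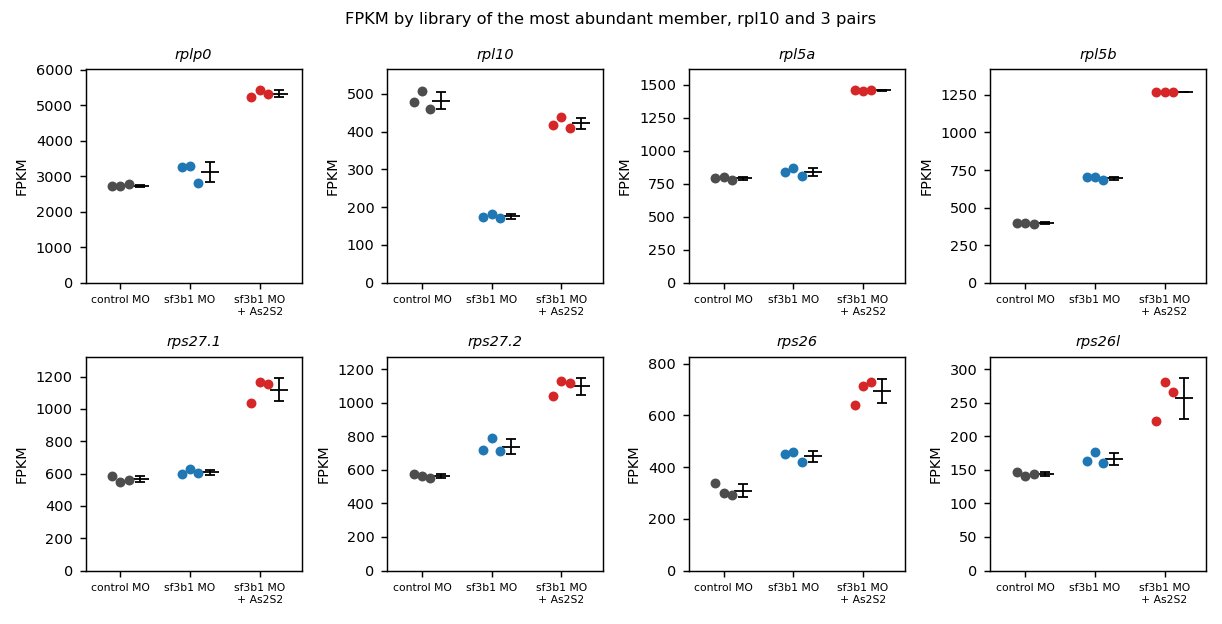
FPKM (vertical axes, each from 0 with its own scale) of rplp0, rpl10 and the pairs rpl5a and rpl5b, rps27.1 and rps27.2, rps26 and rps26l, by group. Points are libraries, and the bar to the right is the mean with its SD (n = 3). rpl10 is lowest in the libraries labelled sf3b1 MO, and rpl5b climbs at both steps.

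rpl10 moved against most of the family at the first step. Its protein is among the last to join the 60S subunit and helps to complete the peptidyl transferase centre. In human T-cell leukaemia it is a recurrently mutated ribosomal protein gene. It measured 479, 506 and 461 FPKM in control MO, 174, 183 and 170 FPKM in those labelled sf3b1 MO and 418, 438 and 410 FPKM in the As2S2 libraries. The groups did not overlap: the libraries labelled sf3b1 MO were far below the rest and the As2S2 libraries a little below control MO. By counts it went from 435 ± 22.6 to 163 ± 5.10 CPM (SD, n = 3), a log2 fold change of -1.42 ± 0.04 (edgeR adjusted p = 7.2e-12). The authors' deposited table gives -1.41. It was higher again with As2S2 by 1.26 ± 0.04 (limma adjusted p = 2.7e-08), among the largest rises called. Against control MO it fell by 0.19 (limma adjusted p = 0.0035), and this was 0.10 in the other direction and not called with libraries centred on the median gene (limma adjusted p = 0.065). At the step at which rpl10 fell, 65 other members rose. At the second step rpl10 rose to near its control level, while 75 members ended above theirs.

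Among the largest rises at the first step, after rpl5b, were those of rps25 at 0.66 ± 0.07, rpl22 at 0.61 ± 0.06, rpl14 at 0.54 ± 0.08 and rps26 at 0.54 ± 0.06 (edgeR adjusted p = 0.00027, 0.00013, 0.0029 and 0.0001). Rps25 serves initiation at internal ribosome entry sites, and Rpl22 is dispensable for general translation but needed for lymphocyte development in mice. rps25 measured 678, 618 and 598 FPKM in control MO, 965, 1042 and 929 FPKM in those labelled sf3b1 MO and 1458, 1702 and 1735 FPKM in the As2S2 libraries, again with no overlap.

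At the second step the largest rises among called members, besides rpl10, were those of rpl27 at 1.05 ± 0.24, rps28 at 0.93 ± 0.11, rplp2l, rps15 at 0.91 ± 0.15 and rpl38 at 0.89 ± 0.13 (limma adjusted p = 0.0037 for rpl27, 6.5e-05 for rps28, 0.00059 for rps15 and 0.00027 for rpl38). Rpl38 is known in mice for its part in translating Hox mRNAs. Against control MO the largest rises called with As2S2 were those of rpl32 (1.90), rpl5b (1.68), rpl27 (1.38), rps25 (1.37), rpl38 (1.35) and rps21 (1.35). The smallest rise was that of rps24, with 766, 747 and 671 FPKM in control MO and 1016, 1096 and 1119 FPKM in the As2S2 libraries, a difference of 0.57 ± 0.05 (limma adjusted p = 1.2e-05).

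The fold changes of most members lay near the family's median. Of the 77 genes, 64 lay within 0.25 (log2) of it for the first comparison, 68 for As2S2 against sf3b1 MO and 61 for As2S2 against control MO. Quartiles at the first step were 0.26 and 0.49 for the family, beside -0.43 and 0.30 for all genes. At the second they were 0.61 and 0.79, beside -0.53 and 0.12. Genes of like abundance were not compared. Within the family, genes with fewer counts per FPKM, a stand-in for a shorter transcript, had somewhat larger fold changes. The Spearman coefficient between fold change and this length measure was -0.30 for sf3b1 MO against control MO, -0.29 for As2S2 against sf3b1 MO and -0.46 for As2S2 against control MO (n = 77 genes), beside 0.04, 0.04 and 0.07 over all genes (n = 13430, 13362 and 13362). Fold change also went with level within the family. Its Spearman coefficient with mean FPKM of the 2 groups compared was -0.38, -0.17 and -0.39 in the same order, beside 0.12, 0.16 and 0.20 over all genes. Length and level were not separated. The genes share the same libraries, so these are descriptions only.

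A few members varied between libraries of 1 group by more than control MO and sf3b1 MO differed. rpl32, for example, measured 36.3, 108 and 94.5 FPKM in control MO, 31.5, 176 and 161 FPKM in those labelled sf3b1 MO and 248, 283 and 284 FPKM in the As2S2 libraries. The first library of control MO and the first labelled sf3b1 MO were low. Its 1.90 ± 0.62 with As2S2 against control MO was called (limma adjusted p = 0.022), and the call was lost without control MO replicate 1 or As2S2 replicate 2 or 3 (limma adjusted p = 0.052 to 0.079).

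rpl39 measured 229, 403 and 392 FPKM in control MO, 570, 322 and 560 FPKM in those labelled sf3b1 MO and 480, 1044 and 949 FPKM in the As2S2 libraries. A single low library in each group spread its values. Without As2S2 replicate 1 its rise over sf3b1 MO was called (1.09, limma adjusted p = 0.014). rpl36a measured 165, 169 and 147 FPKM, then 400, 222 and 213 FPKM, then 324, 404 and 381 FPKM. The first library labelled sf3b1 MO was high, and without it both steps were called (0.47, edgeR adjusted p = 0.00021, and 0.76, limma adjusted p = 0.00022).

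rpl27 measured 675, 539 and 353 FPKM, then 468, 776 and 711 FPKM, then 1297, 1343 and 1316 FPKM. The first 2 groups overlapped, and the As2S2 libraries lay close together above them. By counts rpl27 spread less, with 358, 284 and 259 CPM in control MO and 350, 417 and 384 CPM in those labelled sf3b1 MO. Its FPKM and counts thus differed by library, and its rise with As2S2 rests on FPKM alone. Without control MO replicate 1 the first step of rpl27 was called as well (0.50, edgeR adjusted p = 0.0084). rps15 measured 437, 411 and 286 FPKM, then 363, 429 and 332 FPKM, then 654, 728 and 719 FPKM, with the first 2 groups again overlapping.

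Homologues of genes mutated in Diamond-Blackfan anaemia, or deleted in the 5q- syndrome, numbered 24. By counts 23 of 24 were higher in the libraries labelled sf3b1 MO, with a median log2 fold change of 0.42, and rpl27 was not called. Of all genes, 25.2% were higher. With As2S2 against sf3b1 MO, 24 of 24 rose (median 0.64), as did 24 of 24 against control MO (median 1.02), beside 17.3% and 19.5% of all genes. The whole family had medians of 0.40, 0.72 and 1.03.

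rps19, whose human homologue is the gene most often mutated in that anaemia, measured 984, 790 and 857 FPKM in control MO. The libraries labelled sf3b1 MO gave 1082, 1125 and 1167 FPKM, and the As2S2 libraries 1925, 1521 and 1890 FPKM. By counts the control MO libraries lay closer together, at 581, 564 and 546 CPM. rps19 rose by 0.35 ± 0.03 (edgeR adjusted p = 2.8e-06) and then by 0.65 ± 0.10 (limma adjusted p = 0.00034).

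rps14, the 5q- gene, measured 1179, 1157 and 1136 FPKM, then 1482, 1540 and 1612 FPKM, then 2244, 2424 and 2456 FPKM. It rose by 0.44 ± 0.03 (edgeR adjusted p = 2.2e-07) and then by 0.62 ± 0.04 (limma adjusted p = 1.8e-06), with no overlap between groups. rps28 and rps29 rose at the first step by 0.44 ± 0.11 and 0.51 ± 0.11 (edgeR adjusted p = 0.021 and 0.014). For rps28 the call was lost without control MO replicate 2 or without either of the last 2 libraries labelled sf3b1 MO (edgeR adjusted p = 0.073 to 0.087), and for rps29 without control MO replicate 2 or 3 (edgeR adjusted p = 0.051 to 0.057).

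The symbol pattern does not reach all ribosomal proteins. rpsa, a small-subunit protein also known as the laminin receptor, stood at 1061 ± 29.2 FPKM in control MO, 1348 ± 48.1 in those labelled sf3b1 MO and 2202 ± 17.5 in the As2S2 libraries (SD, n = 3). It rose by 0.37 and then by 0.71 (edgeR adjusted p = 1e-07, limma adjusted p = 1.4e-07). rack1, a scaffold on the head of the small subunit, rose by 0.28 and then 0.57 (edgeR adjusted p = 1.2e-06, limma adjusted p = 3.5e-07). These were named for their function, after their values were seen.

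Some ribosomal proteins are made as fusions with ubiquitin or a ubiquitin-like protein. Of the 4 such genes in the table, 2 rose at the first step and 3 at the second, beside 25.2% and 17.3% of all genes. faua rose by 0.49 and then 0.53 (edgeR adjusted p = 1.7e-08, limma adjusted p = 2e-06). rps27a is itself among the 77 genes. It was not called at the first step (0.48, edgeR adjusted p = 0.099) and rose at the second by 0.35 (limma adjusted p = 0.038), which was lost without sf3b1 MO replicate 1 or As2S2 replicate 2 or 3 (limma adjusted p = 0.085 to 0.13). faub stood at 2.53 ± 0.851 FPKM in control MO and at 1.43 ± 0.251 FPKM in the As2S2 libraries (SD, n = 3) and was called in neither step. Against control MO, 3 of the 4 were higher with As2S2 and faub was lower (-0.51, limma adjusted p = 0.027). Of all genes, 19.5% were called higher and 48.5% lower there.

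A list of 7 genes related to ribosomal proteins holds rpl36a, which is a member. Of these, 2 rose at the first step by counts (28.6%), near the 25.2% of all genes called higher, and 0 fell. By FPKM 4 rose (57.1%) and 1 fell (14.3%) at this step, beside 23.2% and 26.4% of all genes. At the second step 6 rose and 0 fell, beside 17.3% and 44.5% of all genes. rpl22l1, the paralogue of rpl22, rose by 0.44 and then 0.89 (edgeR adjusted p = 0.0071, limma adjusted p = 4e-05). rsl24d1, a factor of 60S assembly related to Rpl24, rose by 0.50 and then 0.89 (edgeR adjusted p = 0.0036, limma adjusted p = 5.2e-06).

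For the lists of other translation genes, the counts at the first step stand beside 25.2% of all genes called higher and 25.9% lower, and those of As2S2 against sf3b1 MO beside 17.3% and 44.5%. Counts given after centring for As2S2 against sf3b1 MO stand beside 30.2% and 27.4%. Of 13 elongation factor genes tested by counts, 5 rose (38.5%) and 4 fell (30.8%) in the libraries labelled sf3b1 MO, not far from these shares (median log2 fold change 0.04). With As2S2 against sf3b1 MO, 8 of 12 rose and 2 fell (median 0.62). The list includes eef2k, which encodes a kinase of an elongation factor rather than a factor. It had the largest rise of the list at the second step, 0.89 (limma adjusted p = 5.1e-07). eef2b, which encodes the translocation factor, stood at 1194 ± 6.51, 1264 ± 21.2 and 2237 ± 9.83 FPKM in control MO, sf3b1 MO and As2S2 (SD, n = 3) and rose by 0.82 at the second step (limma adjusted p = 5e-09). eef1a1l1, which brings tRNAs to the ribosome, was not called at the first step (-0.03, edgeR adjusted p = 0.21) and rose by 0.64 at the second (limma adjusted p = 2.4e-08). Its paralogue eef1a1a went the other way, with 0.50 at the first step and -1.06 at the second (edgeR adjusted p = 1.7e-06, limma adjusted p = 3.4e-08).

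Among 15 subunits of initiation factor 3, the complex that scaffolds the small subunit at the start of translation, 8 rose and 1 fell at the first step, and 11 rose and 2 fell with As2S2 (medians 0.18 and 0.49). eif3g rose by 0.42 and then 0.61, and eif3m by 0.41 and then 0.78 (edgeR adjusted p = 6.2e-07 and 9.5e-07, limma adjusted p = 2.8e-07 and 2.4e-07). Of 34 genes for other initiation factors and proteins that bind them, 7 were higher (20.6%) and 10 lower (29.4%) at the first step. These were near the shares of all genes. At the second step 11 were higher and 11 lower. eif2s3, a subunit of the factor that carries the initiator tRNA, rose with As2S2 by 0.82, whereas eif1axb fell by 1.25 (limma adjusted p = 2.9e-08 and 5.7e-08). Centring libraries on the median gene gave 16 higher and 5 lower in this last list.

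Of 10 further mRNAs known in mammals to begin with a TOP stretch, 5 rose (50.0%) and 3 fell (30.0%) at the first step, beside 25.2% and 25.9% of all genes, and 7 rose and none fell with As2S2. naca, which encodes a chaperone at the ribosome's exit tunnel, rose by 0.22 and then 0.70 (edgeR adjusted p = 4.2e-05, limma adjusted p = 4.5e-08). nap1l1, a histone chaperone, fell by 0.71 and then rose by 0.43 (edgeR adjusted p = 1.3e-07, limma adjusted p = 7.7e-05). Among 16 genes of the TOR pathway and regulators of TOP mRNAs, 7 rose and 2 fell at the first step. With As2S2, 2 rose and 4 fell as deposited, and 6 rose and 1 fell after centring on the median gene, so the balance turned with the scaling. ddit4, a stress-induced inhibitor of TOR, rose by 0.92 and then by 0.42, from 18.0 ± 0.655 to 33.1 ± 3.14 and 44.4 ± 1.93 FPKM (SD, n = 3; edgeR adjusted p = 3.8e-07, limma adjusted p = 0.00049). Of 6 genes of ribosome rescue and quality control, 1 rose and 2 fell at the first step. At the second, 1 rose and 4 fell as deposited, and 2 rose and 2 fell after centring.

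Of the 75 mitochondrial ribosomal protein genes, 8 rose and 8 fell at the first step, 10.7% in each direction beside 25.2% and 25.9% of all genes (median log2 fold change 0.05). mrpl51, with the smallest adjusted p, fell, with 10.1 ± 0.512 FPKM in control MO and 3.60 ± 0.189 in sf3b1 MO (SD, n = 3), a change of -1.45 by counts (edgeR adjusted p = 7.8e-08). With As2S2 against sf3b1 MO, 2 rose and 54 fell (median -0.41), and 44.5% of all genes were called lower. After centring on the median gene, 5 rose (6.67%) and 25 fell (33.3%), beside 30.2% and 27.4% of all genes. mrpl34 fell by 0.70 and mrpl12 by 0.59 (limma adjusted p = 1.6e-05 and 2.6e-05). Against control MO, 4 rose and 56 fell, and 12 rose and 25 fell after centring. Cytosolic and mitochondrial families thus had medians of opposite sign in both comparisons of the As2S2 libraries, with and without centring, and no test of the difference between the lists was run.

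**Figure D4:**
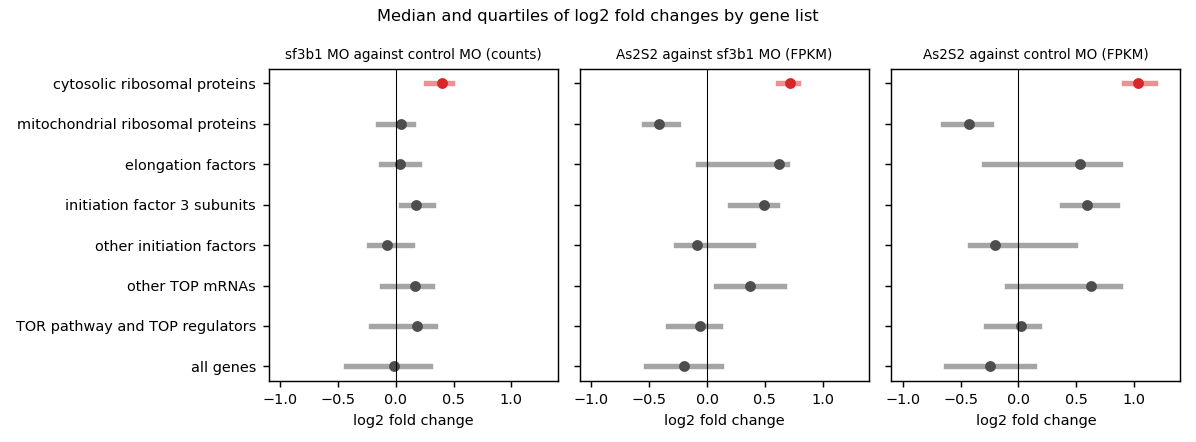
Median (point) and quartiles (bar) of log2 fold changes by gene list (rows) for the 3 comparisons, by counts for sf3b1 MO against control MO and on log2(FPKM + 1) for the others. Cytosolic ribosomal proteins have medians of 0.40, 0.72 and 1.03, and the mitochondrial ones 0.05, -0.41 and -0.42.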

How the data were processed

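RNA was sequenced in 9 zebrafish libraries, grouped by title. Whole-number counts per gene were deposited by the authors for 6 libraries, headed wt and ko. These headers were read as control MO and sf3b1 MO, because each column's deviation from its group followed the FPKM column of that name and number (Spearman 0.949 to 0.955) and no other (at most 0.057). FPKM values were deposited for all 9. The submitters' processing notes name GRCz11, fastp 0.22.0 and DESeq2. The sources used here name no aligner or counter. The authors' deposited log2 fold changes are quoted for 1 gene, and their deposited p-values were not used.

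Counts were tested with edgeR 4.0.16 (R 4.3.3; TMM, robust quasi-likelihood fit, default expression filter, which removed none of 20723 genes). Comparisons with As2S2 used limma 3.58.1 with trend on log2(FPKM + 1), pseudocount 1, all 9 libraries in 1 fit, over 18013 genes that reached 1 FPKM in 3 libraries. All 77 members passed both filters. P-values were Benjamini-Hochberg adjusted over all genes tested. Fold changes on the FPKM scale understate changes of low genes. Alternatives included DESeq2 1.42.0, other scalings and filters, and leaving out each library. The tests were checked on simulated data in which few genes changed, at random in either direction. That check does not bear on how the libraries were scaled. The common biological coefficient of variation was 0.20.

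The members and gene lists were chosen with earlier results of these data known. Of 202 symbols in the lists, 182 were in the table. Named with values were the 6 largest rises and falls among called members of at least 10 CPM or FPKM, the 5 most and 5 least abundant, pairs, the stalk, fusion, 5S and anaemia lists, sf3b1, smad7 and up to 3 genes of each other list. The members that varied most, rps19, rps14, rps24 and genes outside this rule were chosen after their values were seen. Results for a few genes that this rule names are not reported here.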

Additional observations from a re-analysis of the deposited data

How the results depend on the processing

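The number of cytosolic ribosomal protein genes called changed little. For sf3b1 MO against control MO (66 of 77) it was 62 with upper quartile factors, 73 with DESeq2, 67 with limma on FPKM and 62 to 68 with 1 library left out. For As2S2 against sf3b1 MO (74) it was 73 to 75 with 1 library left out, 77 after centring and 75 with libraries scaled to the non-members, a setting chosen after seeing the data. For As2S2 against control MO (77) it was 76 or 77 in all settings run. Replicate numbers did not pair the libraries (correlations of -0.057 to 0.145), and the fit with the replicate block called 63, 74 and 77. With the block the calls of rpl7, rpl36 and rps28 were lost for sf3b1 MO against control MO (edgeR adjusted p = 0.062, 0.06 and 0.09) and that of rps27a for As2S2 against sf3b1 MO (limma adjusted p = 0.051). Over all genes, a filter of 5 FPKM left 7820 calls for As2S2 against control MO, since fewer genes were tested.

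The share of counts depends on what is summed. By library it was 11.53%, 11.25% and 11.12% of FPKM in control MO and 13.94%, 14.3% and 13.55% in sf3b1 MO. Without transcripts of the mitochondrial genome it was 5.442%, 5.316% and 5.282%, and 6.663%, 6.845% and 6.467% of counts.

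Of 225 results for single members, 22 changed their call or direction under at least 1 alternative. For sf3b1 MO against control MO, rps15 turned to -0.048 with upper quartile factors. With 1 library left out, it ranged from -0.15 to 0.14, never called. rpl10 turned to 0.10 for As2S2 against control MO after centring. By limma on FPKM, sf3b1 turned to -0.66 and smad7 to -0.41 for sf3b1 MO against control MO. For As2S2 against control MO, sf3b1 was not called as deposited (-0.02, limma adjusted p = 0.66). It turned to 0.28 after centring and 0.11 when scaled to the non-members. The cause was not tested.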
